A study of Homo sapiens with 9 samples.

Results

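The heat shock chaperone genes were followed on 9 single-color Agilent expression arrays of DLD1 cells, an established human colorectal cancer line. The set was chosen by gene name and holds 10 members, namely HSF1, HSPA1A, HSPA1B, HSPA8, HSPH1, HSPB1, HSPD1, HSPE1, DNAJB1 and BAG3. All 10 are on the array with 20 probes between them, of 31033 gene names and 50238 probes in all. The 9 arrays fall into 3 groups of 3 cultures, which the study describes as biological replicates. The controls were untreated DLD1 cells, Lamin A/C Kd cells received 100 nM of siRNA against LMNA, and Lamin B2 Kd cells received 100 nM of siRNA against LMNB2, both for 48 h. The controls are described as untreated, and no control siRNA was used on these 9 arrays, so transfection and lamin depletion cannot be told apart in any comparison with them.

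Heat shock proteins are molecular chaperones that bind unfolded or misfolded proteins, prevent their aggregation and help them refold. Their genes are switched on together when proteins are damaged, through heat shock factor 1 (HSF1), which trimerizes, enters the nucleus and binds arrays of inverted GAA units called heat shock elements. Many cancer cells, colorectal cancer cells among them, hold chaperone levels high without heat. The comparison asked whether the level of these transcripts differed after loss of a nuclear lamin, one of the filament proteins under the inner nuclear membrane.

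Values are the log2 of the processed signal minus the median of the array, so a value of 0 is the median spot and a difference of 1 is a doubling. Where a gene has several probes, probe 1 is the brightest and stands for the gene, and levels of different probes are not set against each other. Differences come from a linear model over all 9 arrays with limma's moderated test, and a gene was called at a Benjamini-Hochberg adjusted p under 0.05 over all probes tested. Of the spots on an array, between 65.6 and 74.1% were well above background and 0 were saturated, and all 20 member probes were well above background on all 9 arrays. In these bulk RNA samples, fewer expressing cells and less RNA per cell cannot be told apart. Of 10 markers of colorectal epithelium, 9 were detected on all 9 arrays and CDX1 on 7. Of 8 markers of immune, fibroblast or endothelial cells, CD3E, CD14 and PECAM1 were also detected on all 9, in Control and knockdown arrays alike, and their part in the results was not tested. The targeted transcripts matched the labels, with LMNA at 7.04% of control where it was targeted and LMNB2 at 20.0% of control where it was. Lamin B2 Kd replicate 3 was hybridized on slide 2 and the other 8 arrays on slide 1. This array lay a median of -0.25 from the mean of the other arrays of its group over 30569 probes detected throughout, and -0.28 over the member probes. It was the lowest of its group for 16 of 20 member probes and for 67.1% of all probes. The differences of the members and of the called genes in that group are therefore also given with the array left out.

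The probes determine which transcript of a near-identical family is read. HSPA1A and HSPA1B, neighboring genes that encode the stress-inducible HSP70, have nearly the same coding sequence. The coding probes named for HSPA1A may therefore also take up HSPA1B transcripts. No probe of the pair shares a run of 12 bases with another. Probes were compared only with probes, so this does not show which transcripts each one reads. HSPA8 encodes HSC70, the constitutive member of the family. One HSPA1A probe and one HSPA8 probe lie over the same conserved part of the coding sequence, where they overlap by 22 bases of which 17 are identical. The capitals mark their longest shared run of 11 bases in these 60-base probes from the scanner files.
HSPA1A probe 2: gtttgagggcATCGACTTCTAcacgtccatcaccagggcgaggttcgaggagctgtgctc
HSPA8 probe 4: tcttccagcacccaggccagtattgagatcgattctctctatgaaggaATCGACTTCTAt
The other HSPA1A coding probe is shown because it is the brightest of the gene.
HSPA1A probe 1: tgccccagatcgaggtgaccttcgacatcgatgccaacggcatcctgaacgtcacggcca

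HSPD1 encodes HSP60, the mitochondrial chaperonin, and its probe 2 resembles a probe of the gene listed as LOC646910. They have 44 identical bases over an overlap of 51, and capitals mark the shared run of 30 bases within the HSPD1 probe.
HSPD1 probe 2: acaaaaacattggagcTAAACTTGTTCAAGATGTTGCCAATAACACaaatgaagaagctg
HSPD1 probe 2 may therefore also read LOC646910 transcripts, and HSPD1 probe 1 was used for the gene.

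Because the members are known as a set through heat shock elements, their start regions were read from the RefSeq promoter table of GRCh38.p14, which covers 250 bases before to 50 bases after each start. It held 12 windows for 9 members, all but HSF1. A pair of inverted units, GAANNTTC or TTCNNGAA, was searched, and each of these reads the same on both strands. At least 1 pair was present in 7 of these 12 windows, which belong to 6 members, and in 13.5% of all 35116 windows. A run of 3 units, GAANNTTCNNGAA or its reverse TTCNNGAANNTTC, was present in 2 of the 12, of HSPA8 and HSPD1, and in 0.49% of all windows. The 3-unit runs contain 2-unit pairs and are counted in both. The windows of HSPH1, HSPE1 and BAG3 held no such pair of letters. The stretches before the start are shown with the matches in capitals, first for the stress-inducible HSP70 genes, which are 92.6% identical over 299 bases and whose starts lie 12195 bases apart.
HSPA1A, chr6:31815413-31815542, plus strand: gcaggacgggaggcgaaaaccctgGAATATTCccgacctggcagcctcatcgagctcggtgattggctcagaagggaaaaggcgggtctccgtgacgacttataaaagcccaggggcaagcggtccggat
HSPA1B, chr6:31827608-31827737, plus strand: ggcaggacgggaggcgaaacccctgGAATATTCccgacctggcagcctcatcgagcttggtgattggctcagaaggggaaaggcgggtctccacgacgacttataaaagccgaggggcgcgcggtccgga
DNAJB1, a J-protein gene, and HSPA8 are shown as examples of windows with more than 1 match. HSPD1 also has such a window, at its second listed start, with 3 pairs.
DNAJB1, chr19:14518398-14518527, minus strand: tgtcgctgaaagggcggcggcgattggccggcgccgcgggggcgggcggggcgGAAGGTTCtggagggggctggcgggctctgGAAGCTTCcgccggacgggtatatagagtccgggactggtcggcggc
HSPA8, chr11:123062137-123062386, minus strand: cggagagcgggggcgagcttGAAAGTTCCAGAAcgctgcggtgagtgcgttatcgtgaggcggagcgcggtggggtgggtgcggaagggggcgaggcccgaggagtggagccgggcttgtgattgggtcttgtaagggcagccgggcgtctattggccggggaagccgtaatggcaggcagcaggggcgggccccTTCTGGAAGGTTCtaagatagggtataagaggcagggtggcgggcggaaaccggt
HSPD1 and HSPE1, which encode HSP60 and its co-chaperonin HSP10, are transcribed away from each other from starts 105 bases apart.

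HSF1, the regulator of the set, has 1 probe. Its level was 7.63, 7.90 and 7.96 in the controls, 7.51, 7.68 and 7.57 in Lamin A/C Kd, and 7.51, 7.70 and 6.79 in Lamin B2 Kd. Within either knockdown, 1 array lay above the lowest control and 2 lay below it, and the lowest of all was Lamin B2 Kd replicate 3. The difference from control was -0.24 (SE 0.22, adjusted p = 0.576 by limma) for Lamin A/C Kd. For Lamin B2 Kd it was -0.50 (SE 0.22, adjusted p = 0.211). Without replicate 3 the latter was -0.22.

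Among the HSP70 genes, HSPA1B values overlapped between Lamin A/C Kd and control, and those of Lamin B2 Kd were lower. Its probe 1 read 6.31, 6.58 and 6.64 in the controls, 6.47, 6.58 and 6.54 in Lamin A/C Kd, and 5.99, 6.18 and 5.88 in Lamin B2 Kd. All 3 Lamin B2 Kd arrays lay below every other array. Its probe 2 gave the same order, with 5.99, 5.88 and 6.34 in the controls, 5.99, 6.22 and 6.23 in Lamin A/C Kd, and 5.73, 5.76 and 5.61 in Lamin B2 Kd. In Lamin B2 Kd the level was 70.9% of control by probe 1 (95% CI 57.8 to 87.0%, adjusted p = 0.0690 by limma) and 77.3% by probe 2 (adjusted p = 0.169). By probe 1 the log2 difference of -0.50 was -0.43 without replicate 3. These differences did not pass the adjusted threshold. For Lamin A/C Kd it was 101% of control (95% CI 82.6 to 124%).

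HSPA1A had lower mean values in both knockdowns by every probe, and the probes differed in their spread and in the overlap of arrays. Its brightest probe, in the coding sequence, read 3.04, 3.02 and 3.43 in the controls, 2.97, 3.29 and 2.74 in Lamin A/C Kd, and 2.58, 3.16 and 2.11 in Lamin B2 Kd. These groups overlapped, and the differences were -0.16 (SE 0.26) and -0.55 (SE 0.26). The second was -0.30 without Lamin B2 Kd replicate 3. Its probe 3 read 0.75, 0.85 and 1.12 in the controls, 0.14, 0.49 and 0.47 in Lamin A/C Kd, and 0.25, 0.53 and 0.45 in Lamin B2 Kd. By this probe every knockdown array lay below every control, at 68.9% of control for Lamin A/C Kd (95% CI 54.3 to 87.4%, adjusted p = 0.0599 by limma) and 71.0% for Lamin B2 Kd (95% CI 55.9 to 90.1%, adjusted p = 0.102). Neither difference passed the adjusted threshold. Probe 2 overlapped between the groups, with differences of -0.54 (SE 0.35) and -0.75 (SE 0.35). Lamin B2 Kd replicate 3 lay -0.76 and -1.02 from the mean of the other arrays of its group by probes 1 and 2 and 0.06 from it by probe 3.

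HSPA8 differed little by any of its 4 probes. Probe 1 read 11.02, 11.04 and 11.14 in the controls, 11.07, 11.09 and 10.99 in Lamin A/C Kd, and 11.12, 10.91 and 10.91 in Lamin B2 Kd. The groups overlapped, and the probes gave differences from -0.04 to 0.03 for Lamin A/C Kd and from -0.19 to -0.01 for Lamin B2 Kd. By probe 1 HSPA8 was at 98.7% of control in Lamin A/C Kd (95% CI 83.0 to 117%) and 94.1% in Lamin B2 Kd (95% CI 79.2 to 112%). The latter, a log2 difference of -0.09, was -0.05 without replicate 3. Its probes 1 and 2 have the same 60 bases, and their values on one array differed by -0.10 to 0.10 (SD 0.070 over 9 arrays).

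HSPH1, the HSP110 protein that exchanges nucleotide on HSP70, read 8.86, 8.87 and 8.98 in the controls, 8.59, 8.50 and 8.61 in Lamin A/C Kd, and 8.68, 8.68 and 8.60 in Lamin B2 Kd. Every knockdown array lay below every control. HSPH1 was at 79.1% of control for Lamin A/C Kd (95% CI 67.4 to 92.9%, adjusted p = 0.0755 by limma) and 84.2% in Lamin B2 Kd (95% CI 71.7 to 98.9%, adjusted p = 0.187). The latter, a log2 difference of -0.25, was -0.22 without replicate 3. The Lamin A/C Kd difference passed the threshold without Lamin B2 Kd replicate 3, at the same -0.34 with an adjusted p of 0.0226, because that array enters the shared estimate of the spread. It also passed with normexp background correction (-0.43, adjusted p = 0.0102) and with array weights (-0.33, adjusted p = 0.0136). It passed in 5 of 20 alternatives, whose adjusted p went up to 0.254, and with quantile normalization it was -0.20 (adjusted p = 0.201). The Lamin B2 Kd difference was -0.05 with the 75th percentile scaling and -0.03 with quantile normalization.

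The co-chaperones of HSP70 were DNAJB1, the J protein HSP40 that delivers clients to HSP70, and BAG3, which releases them and routes them to autophagy. DNAJB1 read 5.79, 5.73 and 5.88 in the controls, 5.17, 5.67 and 5.46 in Lamin A/C Kd, and 5.28, 5.32 and 5.56 in Lamin B2 Kd. Every knockdown array was below every control, with the nearest Lamin A/C Kd array a short step under the lowest control. It was at 77.3% of control in Lamin A/C Kd (95% CI 61.2 to 97.7%, adjusted p = 0.166 by limma) and 75.1% in Lamin B2 Kd (95% CI 59.4 to 94.9%, adjusted p = 0.146). The second, a log2 difference of -0.41, was -0.50 without replicate 3. The first passed the threshold in 2 of 20 alternatives, normexp (adjusted p = 0.0403) and array weights (adjusted p = 0.0451). The highest adjusted p among the alternatives was 0.447. BAG3 read 5.80, 5.75 and 5.93 in the controls, 5.76, 5.92 and 5.64 in Lamin A/C Kd, and 5.72, 5.72 and 5.47 in Lamin B2 Kd. Its differences were -0.05 (SE 0.13) and -0.19 (SE 0.13), and those of its probe 2 were -0.01 and -0.31, none of which passed the test. Without Lamin B2 Kd replicate 3 the difference of -0.19 was -0.11.

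HSPB1, the small heat shock protein HSP27 that holds unfolded proteins without using ATP, read 9.50, 9.57 and 9.61 in the controls, 9.56, 9.69 and 9.53 in Lamin A/C Kd, and 9.39, 9.61 and 8.72 in Lamin B2 Kd. The groups overlapped, although Lamin B2 Kd replicates 1 and 3 lay below every control. Replicate 3 was the lowest and lay -0.78, -0.81 and -0.85 from the mean of the other arrays of its group by the 3 probes. HSPB1 was at 102% of control in Lamin A/C Kd (95% CI 74.3 to 141%) and 80.1% in Lamin B2 Kd (95% CI 58.0 to 110%). Its Lamin B2 Kd difference of -0.32 was -0.06 without replicate 3.

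Of the mitochondrial pair, HSPD1 probe 1 read 11.52, 11.56 and 11.59 in the controls, 11.59, 11.55 and 11.49 in Lamin A/C Kd, and 11.65, 11.45 and 11.24 in Lamin B2 Kd, so the groups overlapped in both comparisons. It was at 99.1% of control in Lamin A/C Kd (95% CI 81.5 to 121%) and 92.9% in Lamin B2 Kd (95% CI 76.3 to 113%), and without replicate 3 the latter log2 difference of -0.11 was -0.0022. HSPD1 probe 2, which may also read LOC646910, differed by -0.16 (SE 0.21, adjusted p = 0.727 by limma) in Lamin A/C Kd. By that probe every Lamin A/C Kd array lay below every control. In Lamin B2 Kd it differed by -0.36 (SE 0.21, adjusted p = 0.311 by limma), with overlapping groups. There replicate 3 lay -0.83 from the mean of the other arrays of its group. HSPE1 read 11.19, 11.34 and 11.27 in the controls, 11.09, 11.13 and 11.19 in Lamin A/C Kd, and 11.16, 10.89 and 10.54 in Lamin B2 Kd. Every knockdown value was below every control, although the highest Lamin A/C Kd value and the lowest control both round to 11.19. HSPE1 was at 91.2% of control in Lamin A/C Kd (95% CI 71.6 to 116%) and 75.5% in Lamin B2 Kd (95% CI 59.3 to 96.3%, adjusted p = 0.164 by limma). Without Lamin B2 Kd replicate 3 its difference of -0.40 became -0.24.

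**Figure D1:**
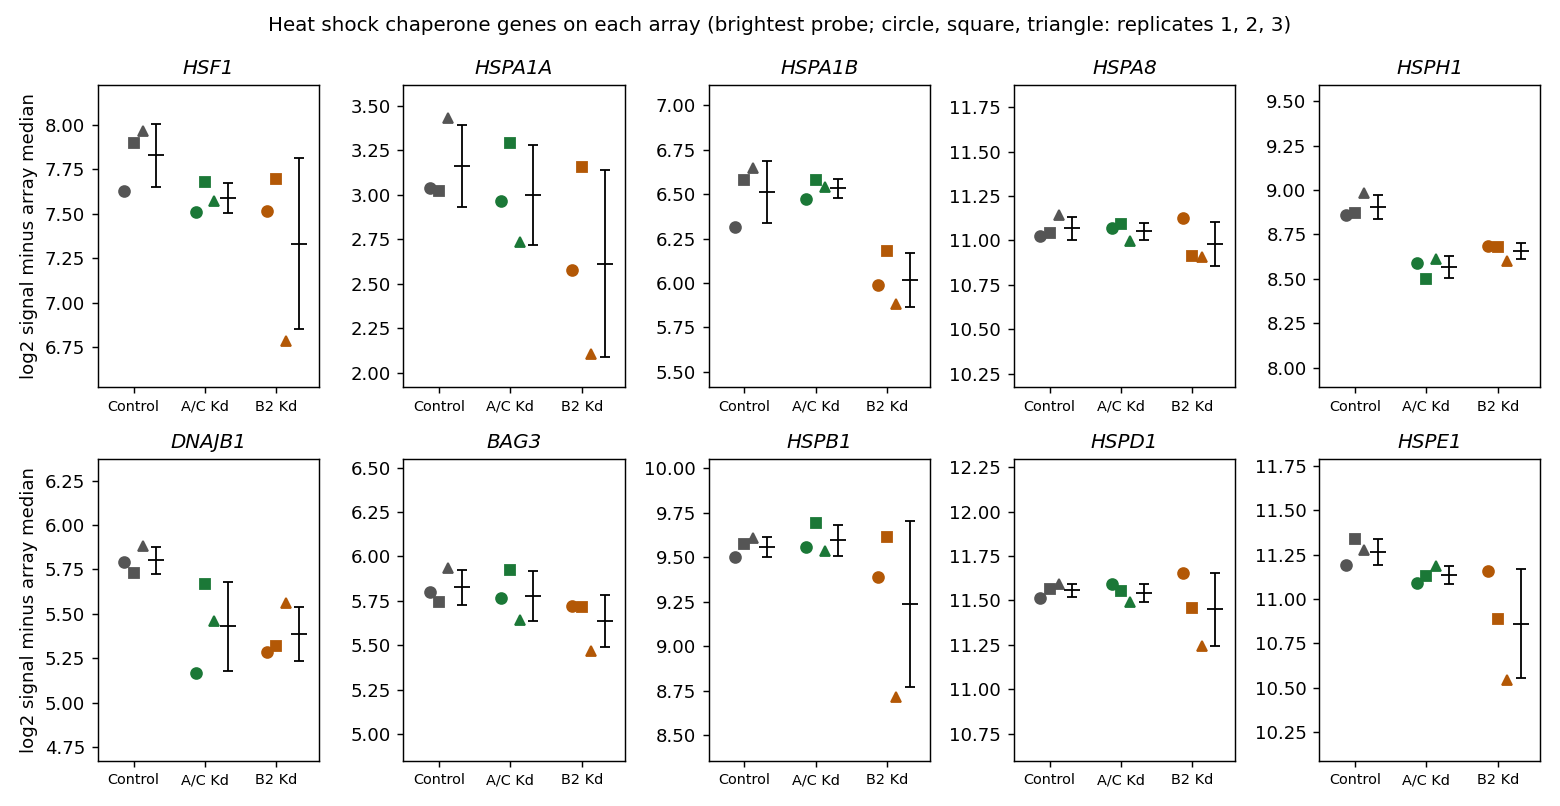
Each panel plots 1 gene by its brightest probe, with the log2 signal minus the array median on the vertical axis (span equal in all panels) and the 3 groups on the horizontal axis. Points are arrays, and the bar beside them is the mean with its SD (n = 3). HSPH1 and DNAJB1 sit below all controls in both knockdowns, HSPA1B sits below in Lamin B2 Kd, and the triangle of Lamin B2 Kd replicate 3 is far down for HSF1, HSPA1A, HSPB1 and HSPE1.

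Compared with the controls, no member was called in Lamin A/C Kd and none rose. The count was 0 of 10 by limma's adjusted p, where 8.94% of 21846 genes tested were called, and 0 by a fold change of at least 2 with an unadjusted p under 0.05, where 2.21% were. At an unadjusted p under 0.05, HSPH1 and DNAJB1 were lower and 0 members were higher, and 14.7% of all genes were lower by that rule. With the 75th percentile scaling 1 member had such a p, and with quantile normalization 0 had, but the share of all genes was not counted in either. Groups did not overlap, with the knockdown lower, for 3 members against 25.2% of all genes. Members ranged from -0.37 for DNAJB1 to 0.03 for HSPB1, with a median of -0.09 beside -0.04 for all genes tested. The upper 95% bound was highest for HSPB1, at 141% of control, so a doubling lay outside the interval of every member's brightest probe.

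In Lamin B2 Kd the members had lower mean values than control by small amounts, and again none was called. The count was 0 of 10 by limma's adjusted p, against 4.38% of 22103 genes tested, and 0 by the fold rule, against 2.03%. At an unadjusted p under 0.05, HSF1, HSPA1B, HSPH1, HSPE1 and DNAJB1 were lower, 5 members, and 0 were higher, where 20.1% of all genes were lower. The groups did not overlap for 5 members, HSPA1B, HSPH1, HSPE1, DNAJB1 and BAG3, against 27.2% of all genes. All 10 differences were negative, although with the 75th percentile scaling HSPA8, HSPD1 and BAG3 were above 0, as BAG3 was with quantile normalization. They ran from -0.55 for HSPA1A to -0.09 for HSPA8, with a median of -0.36 beside -0.14 for all genes. With replicate 3 left out they ran from -0.50 for DNAJB1 to -0.0022 for HSPD1, with a median of -0.22. The median of all genes was not taken without replicate 3, so the -0.22 has none beside it. The 5 members with an unadjusted p under 0.05 became 3 without that array, 2 with quantile normalization and 1 with the 75th percentile scaling. The share of all genes at that p was not counted in these alternatives. Scaling each array to its 75th percentile added 0.20 to every difference in this comparison, which put the median of all genes at 0.06 and that of the members at -0.17. Taken relative to the median of all genes, the members ranged from -0.41 for HSPA1A to 0.05 for HSPA8, and HSPD1 was at 0.03. Both comparisons use the same 3 controls, so they are not independent of each other.

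**Figure D2:**
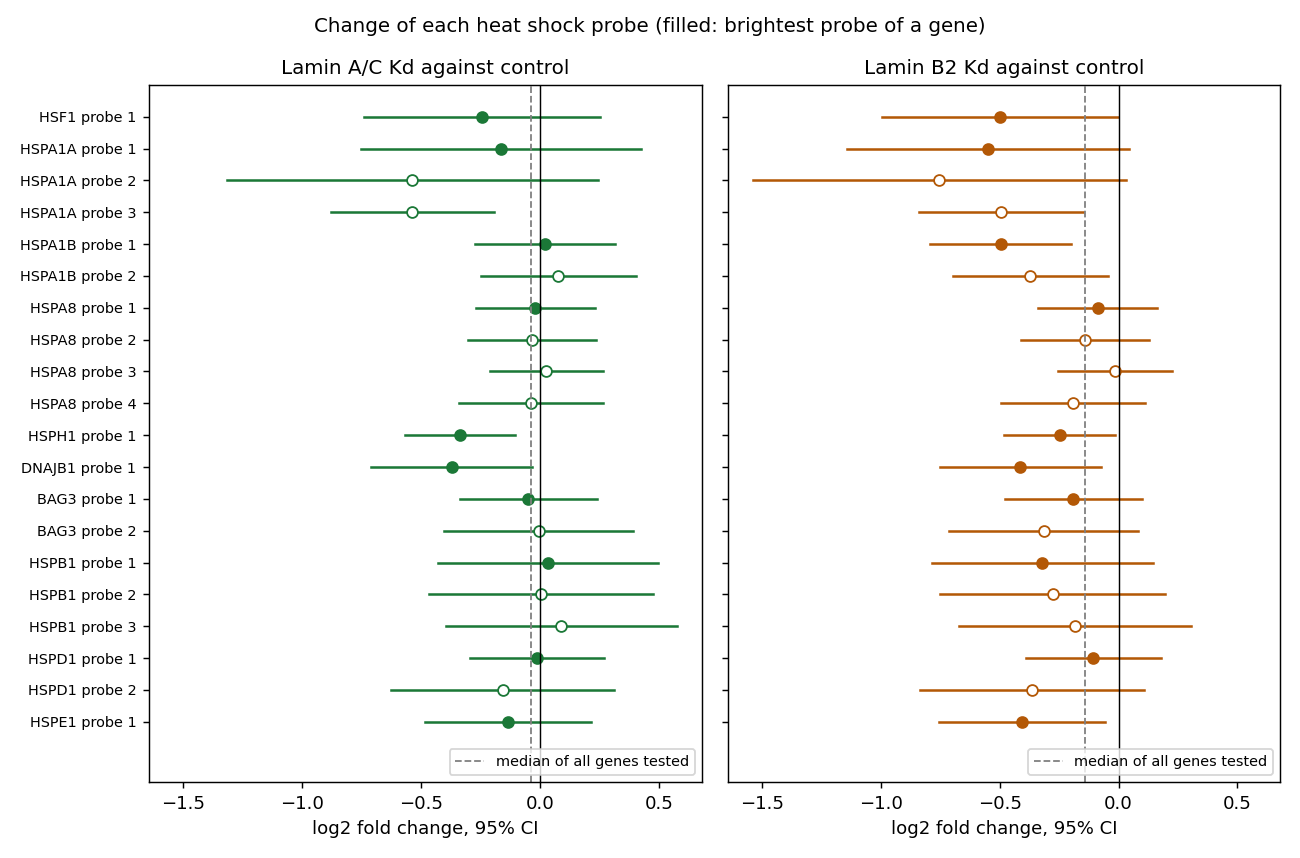
The 20 member probes are listed down the vertical axis, and the horizontal axis gives the log2 fold change against control with its 95% confidence interval (9 arrays in the model). Filled points are the brightest probe of a gene, and the dashed line is the median of all genes tested, at -0.04 on the left and -0.14 on the right. HSPA8 and HSPD1 probe 1 lie close to that line in both panels, whereas all 3 HSPA1A probes and both HSPA1B probes lie to its left in Lamin B2 Kd.

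**Figure D3:**
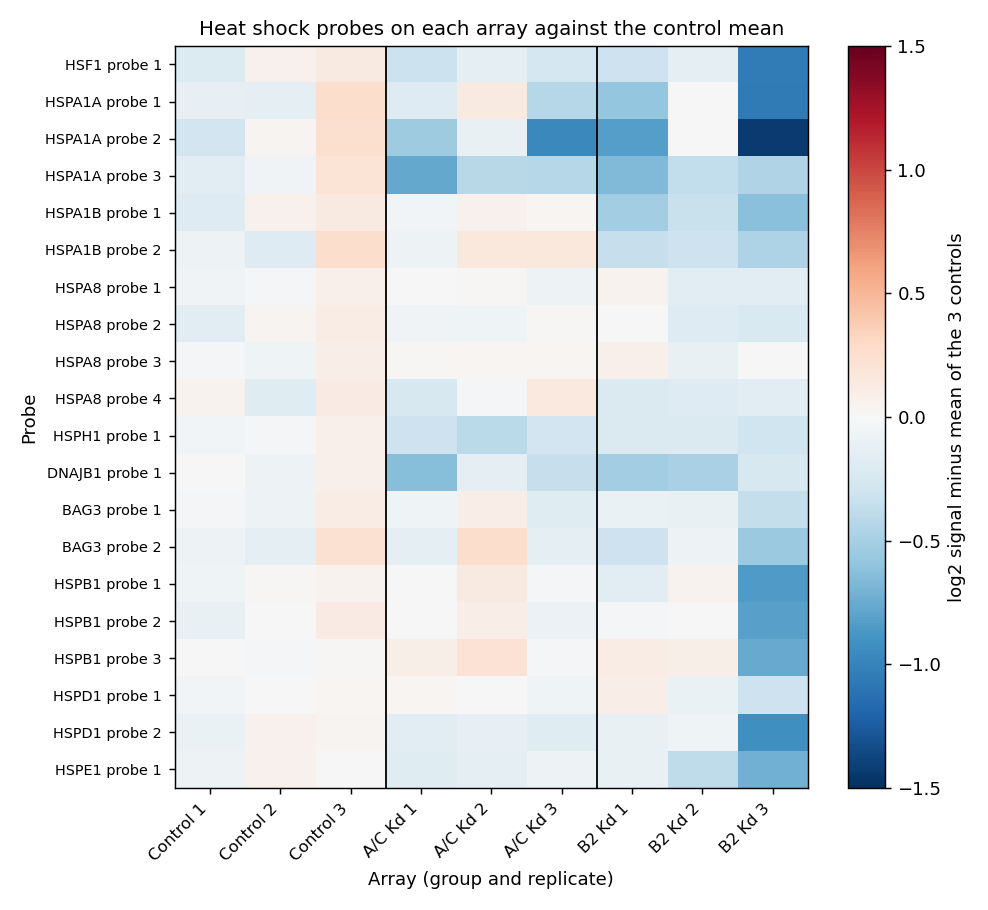
Each row is a member probe and each column an array. The color is the log2 signal minus the mean of the 3 controls. The right column, Lamin B2 Kd replicate 3, is the darkest for HSF1, HSPA1A probes 1 and 2, HSPB1 and HSPD1 probe 2, while HSPA1B is blue on all 3 Lamin B2 Kd arrays and pale on all 3 Lamin A/C Kd arrays.

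Set against each other, the knockdowns differed in HSPA1B. Its level was 0.52 higher in Lamin A/C Kd than in Lamin B2 Kd (SE 0.13, adjusted p = 0.0286 by limma), and by probe 2 it was 0.45 higher (SE 0.14, adjusted p = 0.0671). It was the only member called in this comparison, 1 of 10 against 15.7% of all genes tested. The call held in 11 of 20 alternatives, whose adjusted p ranged from 0.0240 to 0.0994. It was lost on leaving out Lamin A/C Kd replicate 1 (0.55, adjusted p = 0.0685), replicate 2 (0.49, adjusted p = 0.0994) or replicate 3 (0.51, adjusted p = 0.0830), and on leaving out Lamin B2 Kd replicate 1 (0.50, adjusted p = 0.0654). With Lamin B2 Kd replicate 3 left out the difference was 0.45 (adjusted p = 0.0402). The other members differed between the knockdowns by -0.09 for HSPH1 to 0.39 for HSPA1A, and none passed the test. Without Lamin B2 Kd replicate 3 that of HSPA1A was 0.13.

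The wider chaperone network was read through 10 lists that hold 100 genes besides the members, of which 95 were tested. HSF5, HSPB3, HSPB7, HSPB8 and CRYAA did not pass the filter on detection. For Lamin A/C Kd the count was 1 higher and 7 lower, that is 8.42% of the 95 beside 8.94% of all genes, with a median of -0.11. For Lamin B2 Kd it was 0 higher and 2 lower, 2.11% beside 4.38%, with a median of -0.20.

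The genes that fell in Lamin A/C Kd came from several families. HSPA14, a ribosome-associated HSP70, fell by 0.92 from 7.77 ± 0.04 to 6.85 ± 0.18 (SD, n = 3, adjusted p = 0.00478 by limma). CHORDC1, a co-chaperone of HSP90, fell by 0.78 (SE 0.11), and FKBP5, the HSP90-bound immunophilin that restrains the glucocorticoid receptor, fell by 0.73 (SE 0.12). CLPP, the protease of the mitochondrial matrix, fell by 0.74 (SE 0.15), and PFDN2, a subunit of the prefoldin that feeds the TRiC chaperonin, fell by 0.48 (SE 0.12). EGR1 and GADD45B, early stress-response genes that are not chaperones, fell by 0.72 and 0.57. The gene that rose was DNAJB9, a J protein of the endoplasmic reticulum induced by the unfolded protein response, by 0.63 (SE 0.12). HSPA5, the HSP70 of the same compartment, was at 0.14 (SE 0.14) with no call. The calls of HSPA14, CHORDC1, EGR1 and FKBP5 held in all 20 alternatives, those of GADD45B, PFDN2, CLPP and DNAJB9 in 10, 11, 14 and 16. Those of GADD45B and PFDN2 were lost in other settings and on leaving out any 1 of the Control or Lamin A/C Kd arrays, where GADD45B lay between -0.66 and -0.45 and PFDN2 between -0.52 and -0.46. That of CLPP was lost in 1 other setting and without any 1 control or Lamin A/C Kd replicate 1 or 2, at -0.79 to -0.69, and that of DNAJB9 without any 1 control or Lamin A/C Kd replicate 1, at 0.62 to 0.64.

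The genes that fell in Lamin B2 Kd were 2 of the 14 on the list of HSP90 and its co-chaperones, where 4.38% of all genes were called. UNC45A, a myosin chaperone that works with HSP90, read 5.48, 5.47 and 5.58 in the controls and 4.63, 4.62 and 4.08 in Lamin B2 Kd, so that it fell by 1.07 (SE 0.17, adjusted p = 0.0166 by limma). AHSA1, the activator of the HSP90 ATPase, read 7.49, 7.71 and 7.71 in the controls and 7.01, 7.01 and 6.45 in Lamin B2 Kd, and it fell by 0.81 (SE 0.17, adjusted p = 0.0378). Without Lamin B2 Kd replicate 3 both were still called, at -0.88 for UNC45A (adjusted p = 0.0115) and -0.63 for AHSA1 (adjusted p = 0.0311). The UNC45A call held in 14 of 20 alternatives and was lost in other settings and without any 1 control, at -1.09 to -1.03 (adjusted p = 0.0677 to 0.0947). The AHSA1 call held in 10 of 20 and was lost in other settings and without any 1 control or Lamin A/C Kd array, at -0.88 to -0.78 (adjusted p = 0.0625 to 0.162). The HSP90 genes themselves, HSP90AA1 and HSP90AB1, were at -0.17 and -0.18, and after Lamin A/C Kd at -0.20 and -0.07, with no call. HSF2, the other heat shock factor read here by name, was at -0.26, and at -0.04 after Lamin A/C Kd. HSPA9, the mitochondrial HSP70, was at -0.06 (SE 0.12). After Lamin A/C Kd it was at -0.39 (SE 0.12, adjusted p = 0.0706), which passed the threshold without Lamin B2 Kd replicate 3 (adjusted p = 0.0219). This HSPA9 difference passed in 5 of 20 alternatives, and with quantile normalization it was -0.23 (adjusted p = 0.335).

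By family, the median difference in Lamin A/C Kd ran from -0.21 over the 14 TRiC and prefoldin genes to 0.03 over the 5 small heat shock proteins tested. In Lamin B2 Kd it ran from -0.38 over the 4 heat shock factors tested to 0.15 over the small heat shock proteins. The 14 chaperones of the endoplasmic reticulum had a median of 0.02 for Lamin A/C Kd. For Lamin B2 Kd it was -0.32, and 0 were called and 6 were lower at an unadjusted p under 0.05, beside 20.1% of all genes. The 14 acute heat shock targets outside the members had medians of 0.03 and -0.11, with 3 called lower in Lamin A/C Kd, beside 8.94% of all genes called, and 0 called in Lamin B2 Kd, beside 4.38%. Medians and counts by family were not taken without Lamin B2 Kd replicate 3 or with another scaling.

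**Figure D4:**
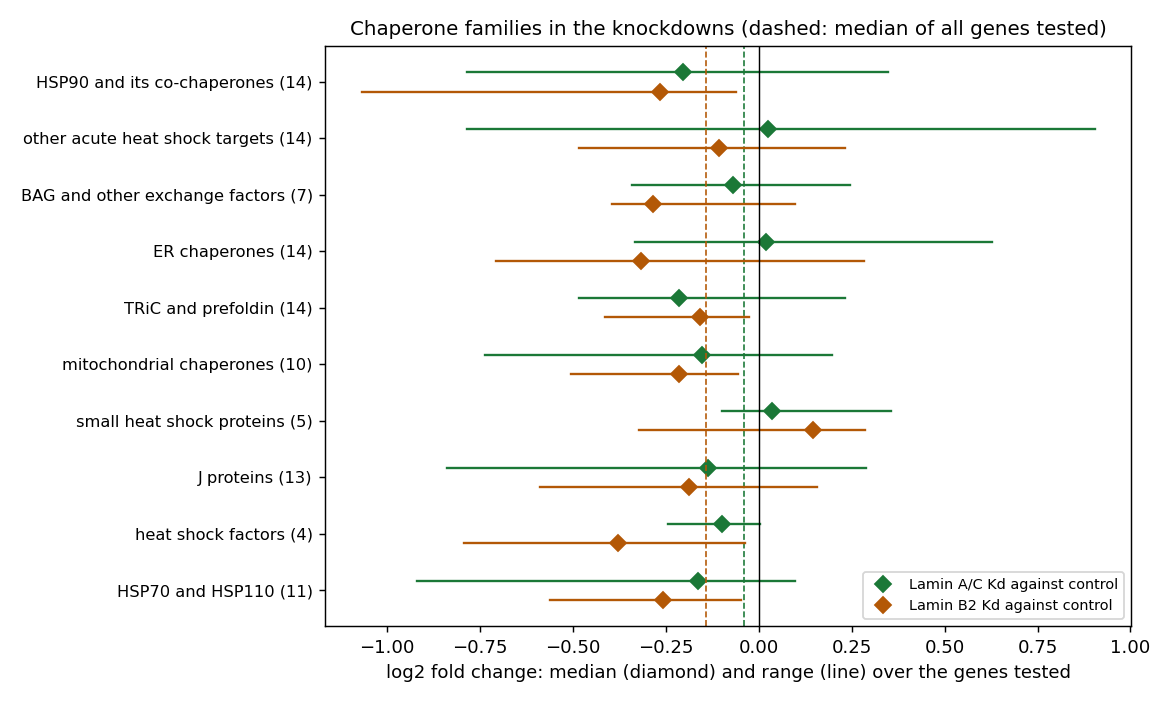
Each family of chaperone genes is a line on the vertical axis with the number of genes tested in brackets, members of the set included. The horizontal axis is the log2 fold change against control, with the diamond at the median and the line from the lowest to the highest gene. The dashed lines are the medians of all genes tested, -0.04 for Lamin A/C Kd and -0.14 for Lamin B2 Kd. The families spread to both sides of these lines.

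The patterns over the 9 arrays were also compared with those of 20262 other genes, as a description in which the arrays share groups and scaling. The gene most like HSPA1A was ZNF282, with a Pearson's r of 0.990, followed by TMEM16J, FAM38A, INTS5 and LOC343508, the last at 0.978. The genes most like HSPD1 were LOC649925 (0.979), LOC441073, FUT4, RPL18AP3 and AK057088 (0.971). None of these 10 genes is in a chaperone list.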

How the data were processed

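RNA of 9 DLD1 cultures was hybridized to 9 one-color Agilent arrays. For every array the authors deposited scanner output from Agilent Feature Extraction, with a processed intensity per spot, corrected for background and spatial trend. The submitters' processing notes name version 10.5, the file headers 10.7.3.1. A series-wide file of log2 values that the authors shifted to each array's 50th percentile and centered by row was deposited too and served as an alternative. Its Lamin B2 Kd columns were used as a group, since their numbers disagree with the titles.

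Intensities were taken to log2, the array's own 50th percentile was subtracted, and non-outlier spots of a probe were averaged. Testing required that all 3 arrays of 1 of the groups compared were well above background. Groups were compared with limma 3.58.1 (R 4.3.3) over all 9 arrays, and the scripts were tested on simulated data. Groups of 3 arrays limit the precision.

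All member probes are reported. Related genes are named where called, at most 10 per comparison by size, with 5 always given (HSF2, HSP90AA1, HSP90AB1, HSPA5, HSPA9), and 5 genes with the most similar pattern to HSPA1A and to HSPD1. The members and lists were chosen with earlier results of these data known. Alternatives were 2 other scalings, normexp with an offset of 50, the authors' log2 file, other detection filters, blocks for replicate and slide, array weights, only the groups compared, the mean of a gene's probes, the fold rule, and each array left out.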

Additional observations from a re-analysis of the deposited data

Results flagged for a closer look

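HSPA1B is singled out because its response differed between the knockdowns by a direct test. The level was 0.52 higher in Lamin A/C Kd than in Lamin B2 Kd by log2 difference (adjusted p = 0.0286 by limma's test, 9 arrays in the model), and every array of the former was above every array of the latter by both probes. Of all genes tested, 21.9% did not overlap in this direction and 15.7% were called in either direction. The HSPA1B call held in 11 of 20 alternatives and was lost on leaving out any 1 Lamin A/C Kd array or Lamin B2 Kd replicate 1.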

How the results depend on the processing

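Counts of members called moved as follows. Apart from the fold rule, the share of all genes called was not counted in these alternatives. The counts of members and of the lists given here therefore have no such share beside them. In Lamin A/C Kd against control, where the count was 0, it was 2 with normexp and with array weights, 1 with only the groups compared and with slide as a block, and 0 to 1 on leaving out an array. Slide 2 held only Lamin B2 Kd replicate 3, so slide as a block is nearly the same fit as leaving out that array. Both are counted among the 20 alternatives. In Lamin B2 Kd against control it was 1 with normexp, HSPA1B (-0.41, adjusted p = 0.0474). Between the knockdowns it was 0 instead of 1 with the authors' log2 file, no filter, the fold rule, the replicate block, only the groups compared and array weights, and 0 to 1 on leaving out an array. Deviations of same-numbered arrays correlated by -0.09 to 0.15 and of others by -0.12 to 0.15. These values show no shared deviation by replicate number, but they cannot tell whether the cultures were made as pairs. With the replicate block 0 members were called in each comparison.

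For lists of related chaperone genes, genes called in Lamin A/C Kd against control were 8, 15 with the 75th percentile and 4 to 18 on leaving out an array, the highest without Lamin B2 Kd replicate 3. In Lamin B2 Kd against control they were 2, and 0 to 4 on leaving out an array, with 0 without any 1 control. Between the knockdowns they were 14, 23 with the 75th percentile and 6 to 17 on leaving out an array.

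Beside the left-out arrays given above, calls against control were lost in Lamin A/C Kd for GADD45B and PFDN2 with the authors' log2 file, no filter and the replicate block, for GADD45B with quantile normalization and for CLPP with the replicate block. In Lamin B2 Kd they were lost for AHSA1 and UNC45A with no filter, the replicate block and only the groups compared, and for AHSA1 with the authors' log2 file.

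Signs turned only for genes not called. With the 75th percentile these were, in Lamin A/C Kd, HSPA8 (0.055), HSPD1 (0.062), BAG3 (0.025) and HSF2 (0.038), in Lamin B2 Kd, HSPA8 (0.11), HSPD1 (0.089), BAG3 (0.0055), HSP90AA1 (0.029), HSP90AB1 (0.013) and HSPA9 (0.14), and between the knockdowns HSPA8 (-0.052), HSPD1 (-0.027), DNAJB1 (-0.079) and HSP90AB1 (-0.013). With quantile normalization they were, in Lamin A/C Kd, BAG3 (0.074), HSF2 (0.084) and HSP90AB1 (0.050), in Lamin B2 Kd, BAG3 (0.043), HSP90AA1 (0.00602), HSP90AB1 (0.0088) and HSPA9 (0.18), and between the knockdowns HSPA8 (-0.0036), HSPD1 (-0.047) and DNAJB1 (-0.058). With normexp they were HSPB1 (-0.031) in Lamin A/C Kd, and DNAJB1 (-0.017) and HSP90AB1 (-0.018) between the knockdowns. The mean of a gene's probes turned HSP90AB1 (0.025) in Lamin A/C Kd and HSP90AA1 (0.073) between the knockdowns, the authors' log2 file turned HSP90AA1 (0.050), and slide as a block turned HSF1 (-0.018) and HSPD1 (-0.010) between the knockdowns. On leaving out an array, ranges across 0 were, in Lamin A/C Kd, HSPA1B -0.079 to 0.086, HSPA8 -0.043 to 0.018, HSPD1 -0.036 to 0.015, BAG3 -0.12 to 0.018, HSF2 -0.12 to 0.0050, HSP90AB1 -0.13 to 0.0079 and HSPB1 -0.015 to 0.065, in Lamin B2 Kd HSPA9 -0.11 to 0.00095, and between the knockdowns HSP90AA1 -0.10 to 0.062, DNAJB1 -0.076 to 0.17, HSF1 -0.018 to 0.44 and HSPD1 -0.010 to 0.20. The cause was not tested.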

Other observations

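Between the knockdowns, 14 of 94 related chaperone genes differed by limma's adjusted p, 9 higher and 5 lower in Lamin A/C Kd than in Lamin B2 Kd, 14.9% beside 15.7% of all genes. The higher ones included 3 of the 14 genes on the list of endoplasmic reticulum chaperones (21.4%). On the list of HSP90 and its co-chaperones 4 of 14 were higher and 2 lower (42.9% called). HSPA5 was not called (0.45, adjusted p = 0.0553), though it was in 4 of 20 alternatives. SIL1, the exchange factor of HSPA5, was 0.83 higher (SE 0.18), SERPINH1, the collagen chaperone HSP47, 0.66 higher (SE 0.19), DNAJB9 0.59 higher (SE 0.12) and CALR, the lectin chaperone calreticulin, 0.59 higher (SE 0.15). BAG2, an exchange factor of HSP70, was 0.53 higher (SE 0.11), and UNC45A and AHSA1 were 1.29 and 0.61 higher. HSPA14, CHORDC1 and EGR1 were lower, with differences of -0.87, -0.71 and -0.58. Lamin B2 Kd replicate 3 was the lowest array of its group for all of these named genes except BAG2. Examples are SIL1 (4.95, beside 5.58 and 5.62) and SERPINH1 (2.68, beside 3.35 and 3.34). Without that array SERPINH1 was 0.44 higher and no longer called (adjusted p = 0.0507). The other named genes were still called, at 0.62 for SIL1, 0.53 for DNAJB9 and BAG2, 0.43 for CALR and AHSA1, and 1.11 for UNC45A. HSPA14, CHORDC1 and EGR1 were then at -0.93, -0.75 and -0.63. The calls of AHSA1, CALR and SERPINH1 held in 10, 10 and 8 of 20 alternatives.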
